A study of Mus musculus with 36 samples.

Results

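Small RNA from the ventral and lateral prostate lobes of 30-week-old male mice was compared between animals with and without the TRAMP transgene, in mice that carried only the normal form of ELAC2. The comparison used 6 of the 36 small RNA libraries of a study of ELAC2, a nuclease that trims the 3′ ends of precursor tRNAs. The members were chosen by genotype and age: 3 libraries labelled ELAC2+/+ / TRAMP +/- (WT-TRAMP) and 3 labelled ELAC2+/+ (WT). The strain label of both groups was C56NL/6N. The study describes its mice as matched for age and litter. It bred its lines with homozygous TRAMP mice and does not say whether WT-TRAMP and WT mice shared litters. The other 30 libraries came from prostates in which ELAC2 was deleted by Pb-Cre (KO) or carried the Ala537Thr substitution (A537T), with or without TRAMP, and from 10-week-old mice. Libraries are numbered here as in the column names of the deposited tables: 10, 11 and 12 are WT-TRAMP, and 19, 20 and 21 are WT.

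TRAMP is a mouse model of prostate cancer in which a fragment of the probasin promoter, active in prostate epithelium, drives the large T and small t antigens of the virus SV40. Large T binds and inactivates p53 and the retinoblastoma protein, which frees E2F transcription factors and lets cells enter the division cycle. The miRNAs are short RNAs that guide Argonaute proteins to messenger RNAs, and the seed, bases 2 to 8 of the mature strand, largely sets which messengers are bound. The miR-17/92 and miR-106b/25 clusters are classical E2F and MYC targets, the miR-34 genes are classical p53 targets, and miR-205 and the miR-200 family mark epithelial cells. The promoter drives the transgene in epithelial cells, while each library held RNA of the whole lobes. Neither ELAC2 nor T antigen messenger was measured in these small RNA libraries, so their values hold no check of the genotype. The study itself checked the ELAC2 genotypes by Sanger sequencing and the ELAC2 protein by immunoblot.

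The 6 libraries held between 13647537 (library 21) and 17867885 (library 10) reads assigned to miRNAs, and 935 to 998 miRNAs had a read. The 10 most abundant miRNAs took 67.1% to 72.0% of a library. Values below are reads per 1000000 (RPM), rescaled between libraries on the 686 miRNAs seen in all 6, with factors from 0.819 (library 19) to 1.18 (library 20). Markers of the labelled tissue were abundant in every library: the listed epithelial miRNAs summed to 7.38% to 9.56% of reads in WT-TRAMP and 7.91% to 14.2% in WT, and those of smooth muscle and fibroblast stroma to 17.2% to 27.2% and 25.4% to 26.6%. The study describes its replicates as biological, from separate mice, and the labels name no animal for a library.

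One library of each group lay close to a blend of the other members of its group. Library 12 fell between libraries 10 and 11 for 81.7% of the 290 miRNAs with a mean of at least 10 RPM in the group, and its values were matched best by 45% of library 10 and 55% of library 11. The median departure from that blend was 0.04 on the log2 scale, or 1.20 counting standard deviations, where counting noise alone gives 0.67. Library 21 fell between libraries 19 and 20 for 79.4% of 291 miRNAs, with a best blend of 32% and 68% and a median departure of 1.97 counting standard deviations. In the 6 other groups compared here, the most central library fell between the others for 46.8% to 73.7% of miRNAs. Closest to a blend among these were KO library 24 (67.2% between, median departure 2.00 counting standard deviations) and KO-TRAMP library 18 (73.7%, 2.34). The labels do not mention pooling, and whether these libraries are independent was not tested. Without libraries 12 and 21 limma and edgeR made no call, and so none in any list below. DESeq2 counts without both are given beside the list counts.

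**Figure D1:**
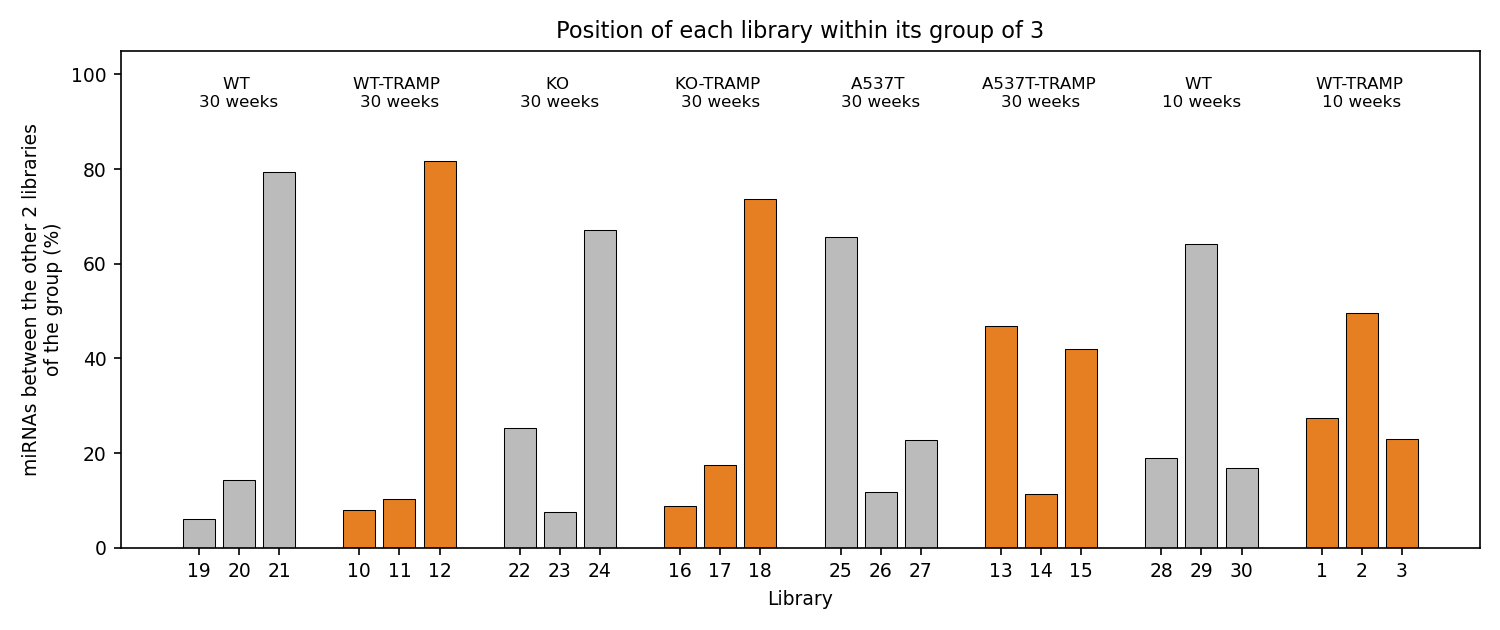
Percentage of miRNAs (mean of at least 10 RPM in the group) for which a library lay between the other 2 libraries of its group, as a bar for each of the 24 libraries of 8 groups (orange, TRAMP; grey, no TRAMP). The bars of libraries 12 (81.7%) and 21 (79.4%) are the tallest of the 24.

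The sequences below are the miRNAs on which the results turn, from RefSeq (GRCm38.p6), written 5′ to 3′ with the seed in capitals. The first set shares the seed AAAGUGC and is shown because its members moved in both directions: miR-17-5p, miR-20a-5p, miR-93-5p and miR-106b-5p were higher in WT-TRAMP, and miR-20b-5p and miR-106a-5p were lower.
miR-17-5p: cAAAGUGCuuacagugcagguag
miR-20a-5p: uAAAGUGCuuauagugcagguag
miR-93-5p: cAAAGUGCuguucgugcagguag
miR-106b-5p: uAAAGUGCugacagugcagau
miR-20b-5p: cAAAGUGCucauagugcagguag
miR-106a-5p: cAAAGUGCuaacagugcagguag

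The second set shares the seed AUUGCAC. It is shown for the same reason: miR-25-3p, miR-32-5p and miR-92a-3p were higher and miR-363-3p was lower in WT-TRAMP.
miR-25-3p: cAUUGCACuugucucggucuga
miR-32-5p: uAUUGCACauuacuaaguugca
miR-92a-3p: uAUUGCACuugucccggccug
miR-363-3p: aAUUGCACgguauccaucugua

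The third set is of the miR-15/16 family, with the seed AGCAGCA. Of the 5 tested miRNAs with this seed and a sequence, 4 were higher, and miR-322-5p did not pass. The fourth is miR-34a-5p and miR-449a-5p, which share the seed GGCAGUG and moved in opposite directions. miR-34b-5p, also tested and with this seed, did not pass. The family member miR-34c-5p, described below, was higher but had no RefSeq sequence, so it is not in this set.
miR-15b-5p: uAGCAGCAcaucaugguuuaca
miR-16-5p: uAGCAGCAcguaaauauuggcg
miR-195a-5p: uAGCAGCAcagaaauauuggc
miR-497a-5p: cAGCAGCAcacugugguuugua
miR-34a-5p: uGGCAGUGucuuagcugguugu
miR-449a-5p: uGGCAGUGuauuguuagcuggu

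The last set holds the leukocyte and epithelial miRNAs and the falls that came as pairs or families. The miR-29 members share AGCACCA, and miR-221-3p and miR-222-3p share GCUACAU.
miR-142a-3p: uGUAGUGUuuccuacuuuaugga
miR-142a-5p: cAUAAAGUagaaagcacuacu
miR-146a-5p: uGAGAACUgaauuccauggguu
miR-205-5p: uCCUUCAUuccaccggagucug
miR-365-3p: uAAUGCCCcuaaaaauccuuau
miR-193b-3p: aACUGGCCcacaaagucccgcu
miR-29a-3p: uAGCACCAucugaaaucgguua
miR-29b-3p: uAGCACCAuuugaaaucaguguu
miR-29c-3p: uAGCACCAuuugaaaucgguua
miR-221-3p: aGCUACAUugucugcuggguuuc
miR-222-3p: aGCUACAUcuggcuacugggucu

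The TRAMP transgene went with a broad change of the miRNA profile at 30 weeks. The cell-cycle linked clusters, the miR-15/16 family and the leukocyte miRNAs were higher in WT-TRAMP, and miR-365-3p, miR-193b-3p, miR-34a-5p, miR-205-5p and the miR-29 family were lower. Of 508 miRNAs with a mean of at least 1 RPM, 140 (27.6%) passed an adjusted p of 0.05 in limma (were called), 77 (15.2%) higher and 63 (12.4%) lower, and 80 of the 140 differed by more than 1 on the log2 scale. None of the 140 overlapped between the groups, against 234 (46.1%) of all tested miRNAs whose groups did not overlap. Of the 158 miRNAs with a mean of at least 100 RPM, 53 passed, and 51 of the 140 had a mean under 10. The median log2 fold change over all 508 was -0.04. Without libraries 12 and 21 limma and edgeR gave no call, with 83 and 102 miRNAs at an unadjusted p under 0.05, and DESeq2 gave 50, of which 46 were among the 140. Since the libraries hold RNA of whole lobes, fewer cells of a type and less RNA per cell cannot be told apart here.

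**Figure D2:**
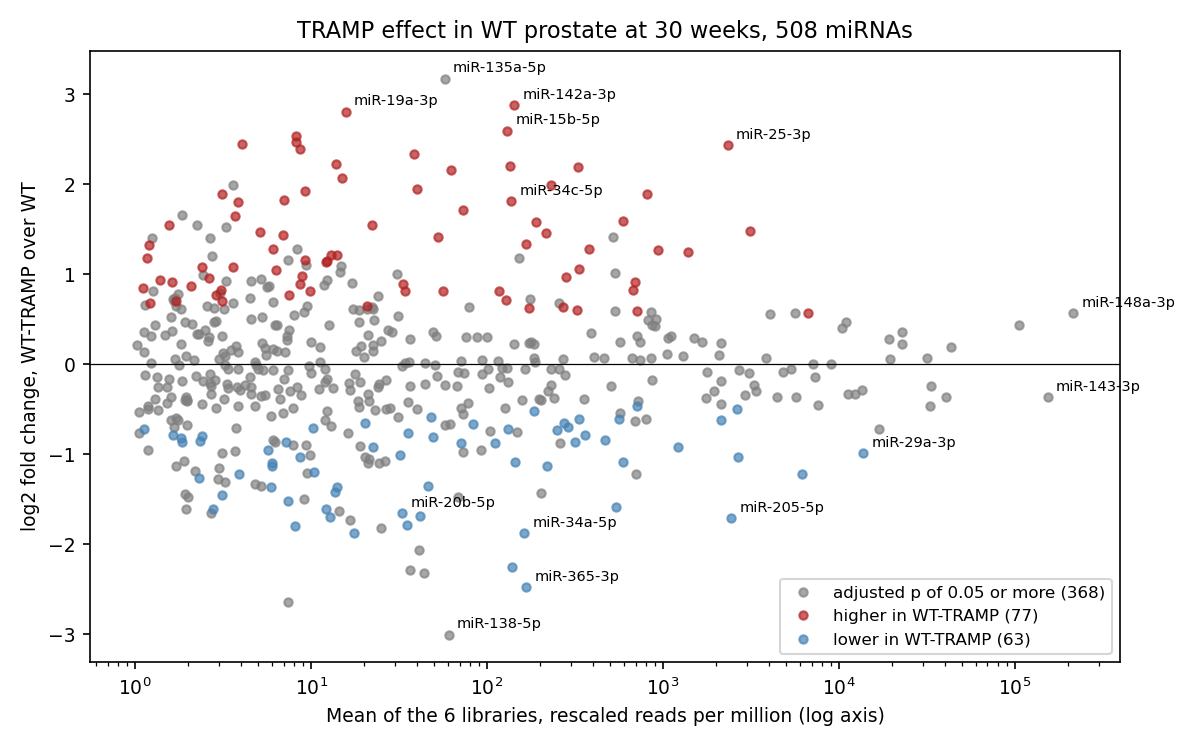
Log2 fold change (WT-TRAMP over WT at 30 weeks) against the mean of the 6 libraries in rescaled RPM (log axis), a point for each of the 508 miRNAs tested by limma. Red points are the 77 higher and blue points the 63 lower in WT-TRAMP at an adjusted p of 0.05, and the most abundant miRNAs, miR-148a-3p and miR-143-3p, are among the grey points.

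The largest rise among the abundant miRNAs was in miR-142a-3p, a miRNA of blood cells. It stood at 229, 273 and 255 RPM in libraries 10, 11 and 12 and at 30.8, 37.1 and 32.4 in libraries 19, 20 and 21, a difference of log2 2.88 ± 0.14, limma adjusted p = 0.000238 (± values are standard errors of the log2 fold change, with 3 libraries a group). All WT-TRAMP libraries were several-fold above all WT libraries. Its other arm, miR-142a-5p, stood at 442, 679 and 516 against 124, 112 and 114 (log2 2.20 ± 0.18, limma adjusted p = 0.000514). Both arms come from a precursor at chr11:87756864-87756927 in an intron of the noncoding host gene Mir142hg.

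**Figure D3:**
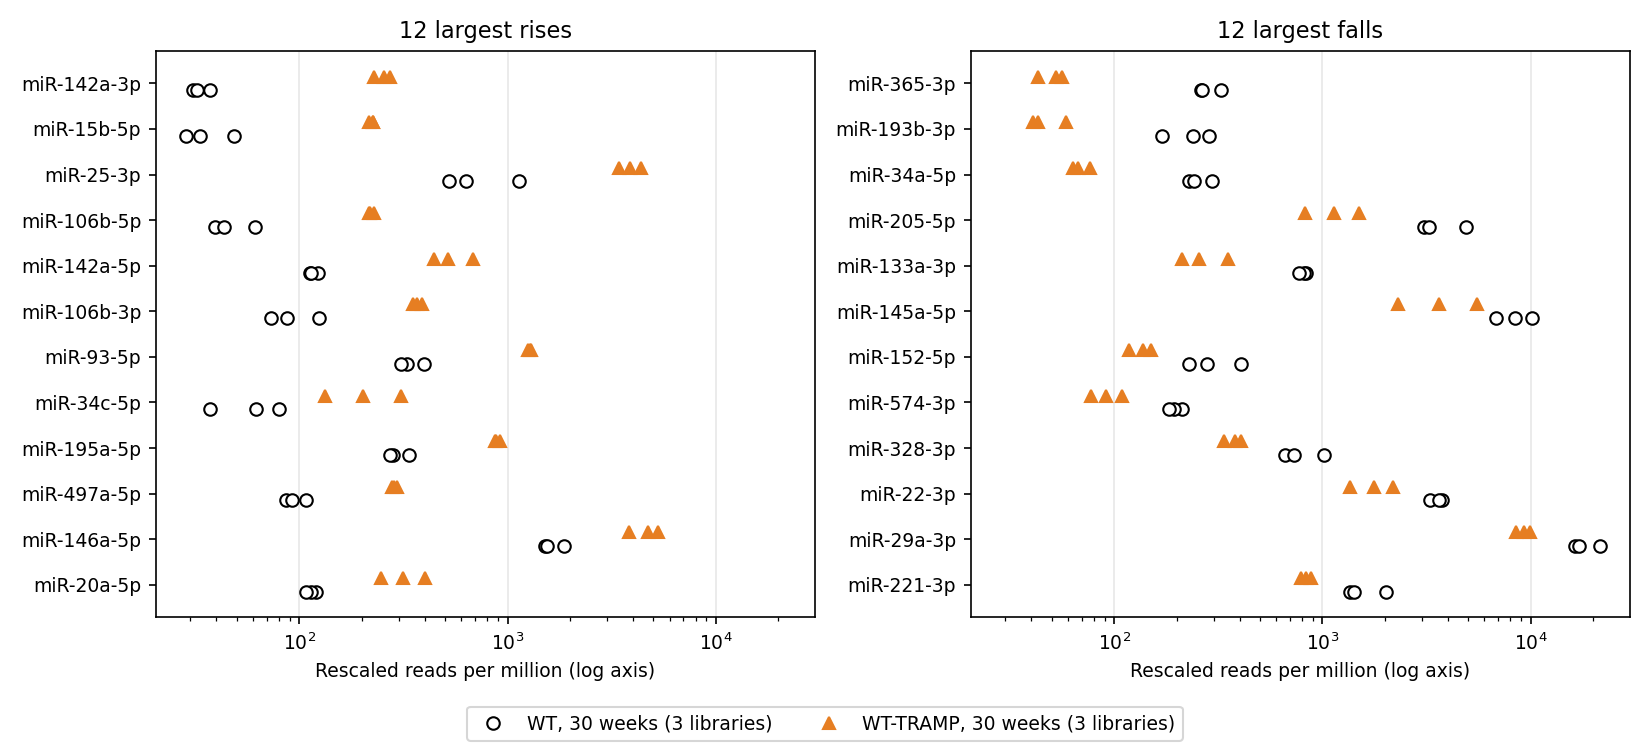
Rescaled RPM (log axis) of the 12 largest rises and the 12 largest falls among miRNAs with a mean of at least 100 RPM, with a symbol for each library (triangles, WT-TRAMP; circles, WT). In every one of the 24 miRNAs the 3 triangles lie on one side of the 3 circles, as the rule that chose them required.

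The miR-106b/25 cluster, 3 precursors within Mcm7, a gene of the DNA replication helicase (chr5:138165321-138165818, minus strand), rose throughout: all 6 tested arms passed. The most abundant was miR-25-3p, at 3435, 4388 and 3896 RPM in WT-TRAMP and 1130.0, 522 and 629 in WT. The rise was log2 2.43 ± 0.29, limma adjusted p = 0.00209, and the WT library nearest to the WT-TRAMP values was library 19. miR-93-5p stood at 1276, 1251 and 1292 against 397, 329 and 306 (log2 1.89 ± 0.14, limma adjusted p = 0.000466). The spread within each group was small beside the gap between the groups. miR-106b-5p stood at 229, 219 and 216 against 39.2, 61.2 and 43.7 (log2 2.21 ± 0.19, limma adjusted p = 0.000514), and its other arm miR-106b-3p at 352, 390.3 and 368 against 124, 73.01 and 86.9 (log2 1.99 ± 0.21, limma adjusted p = 0.00136). The less abundant arms miR-25-5p and miR-93-3p rose by 1.93 and 1.15 on the log2 scale (limma adjusted p = 0.00708 and 0.00634).

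The miR-17/92 cluster itself, 6 precursors in an exon of the noncoding gene Mir17hg (chr14:115043671-115044506, plus strand), had 9 tested arms, and all 9 rose. The abundant members were miR-20a-5p, at 403, 246 and 314 RPM against 120.4, 113 and 108 (log2 1.46 ± 0.20, limma adjusted p = 0.00307), and miR-17-5p, at 297, 194 and 232 against 87.1, 106 and 88.3 (log2 1.34 ± 0.19, limma adjusted p = 0.00388). The groups stood well apart in both. The miR-19 members of the cluster showed larger fold changes at lower levels: miR-19a-3p stood at 27.2, 28.9 and 28.5 against 3.65, 3.20 and 2.70 (log2 2.81 ± 0.18, limma adjusted p = 0.000461). miR-19b-3p stood at 112, 97.9 and 96.6 against 20.05, 23.5 and 22.7 (log2 2.16 ± 0.15, limma adjusted p = 0.000461). miR-92a-3p, the most abundant, showed the smallest rise of the 9, log2 0.59 ± 0.12, limma adjusted p = 0.0156, and lost the call when library 12 or library 21 was left out (adjusted p = 0.0835 and 0.0866). The arms within a cluster are cut from one transcript and are not independent of each other.

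The X-chromosomal copy of the family went the other way. It holds 5 precursors (chrX:52741693-52742567, minus strand, no other annotated gene). Its mature forms miR-19b-3p and miR-92a-3p are identical to those of the chromosome 14 locus and cannot be assigned to either. Of the forms that only the X locus makes, 3 fell, and miR-363-5p, tested but without a sequence here, did not pass. miR-20b-5p stood at 15.2, 13.8 and 16.4 RPM in WT-TRAMP and 68.4, 39.4 and 45.1 in WT (log2 -1.65 ± 0.24, limma adjusted p = 0.00399). miR-363-3p stood at 17.1, 31.1 and 26.1 against 102, 42.2 and 58.3 (log2 -1.35 ± 0.37, limma adjusted p = 0.0383). miR-106a-5p stood at 5.84, 5.74 and 5.88 against 19.5, 12.6 and 12.7 (log2 -1.20 ± 0.22, limma adjusted p = 0.0107). In all 3 the highest WT value was that of library 19, and no WT-TRAMP library reached the lowest WT value. This was the single one of 36 clusters with calls in both directions. Its 2 rises were the shared forms miR-19b-3p and miR-92a-3p, so no rise is shown for the X locus itself. In each of KO and A537T at 30 weeks and WT at 10 weeks, 1 of its 5 tested arms passed as higher and none as lower. In KO and A537T that arm was the shared miR-19b-3p. The medians there were -0.74, -0.44 and 0.37. The seed set shown above thus held 4 members that rose and 2 that fell within AAAGUGC, and 3 that rose, 1 that fell and 1 (miR-92b-3p) that did not pass within AUUGCAC.

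Over the 19 tested miRNAs of the miR-17/92 and paralogue list, 15 rose and 3 fell, with a median log2 fold change of 1.34 beside -0.04 for all miRNAs. Their summed level was 0.717% to 0.772% of reads in WT-TRAMP and 0.190% to 0.275% in WT. miR-32-5p, which shares the seed of miR-25 but lies elsewhere, in an intron of Tmem245, stood at 62.5, 65.2 and 62.5 RPM against 22.8, 13.4 and 12.4 (log2 1.95 ± 0.25, limma adjusted p = 0.00234). The count of rises dropped to 11 without library 12 and 11 without library 21, and to 9 by DESeq2 without both, and the list had 1 fall without library 12.

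The miR-15/16 family, miRNAs known to repress cyclins and the cell-cycle kinases, rose with them: 9 of 10 tested members passed, with a median of 1.59, and none fell (7 rises by DESeq2 without libraries 12 and 21). The cluster Mir15b/Mir16-2 lies in an intron of Smc4, a condensin subunit gene (chr3:69009772-69009996, plus strand), and its 4 tested arms all rose, miR-15b-3p by 1.55 (limma adjusted p = 0.00156). miR-15b-5p stood at 226, 226 and 215 RPM against 48.7, 28.5 and 33.4 (log2 2.60 ± 0.21, limma adjusted p = 0.000514). No WT library came near the WT-TRAMP values. miR-16-5p, which 2 loci encode in identical form, stood at 1487, 1199 and 1298 against 512, 618 and 523 (log2 1.27 ± 0.14, limma adjusted p = 0.00155). The Mir497/Mir195a cluster (chr11:70234717-70235135, plus strand) also rose in its 3 tested arms. miR-195a-5p stood at 915, 875 and 880.4 against 281, 335 and 271 (log2 1.59 ± 0.13, limma adjusted p = 0.000514), and miR-497a-5p at 294, 278 and 285 against 86.3, 107 and 92.6 (log2 1.58 ± 0.13, limma adjusted p = 0.000514). miR-195a-3p, the other arm of miR-195a, rose by 1.71 (limma adjusted p = 0.00634). Over the family the summed level was 0.286% to 0.317% of reads in WT-TRAMP and 0.1001% to 0.117% in WT. miR-322-5p is not in this list of 10. It was the 1 tested miRNA with a RefSeq sequence and the seed AGCAGCA that did not pass. It stood at 29.2, 12.3 and 20.5 against 5.80, 11.99 and 9.03 (log2 1.09 ± 0.38, limma adjusted p = 0.0721), and it passed when library 11 was left out (adjusted p = 0.0363).

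The leukocyte miRNAs were higher in WT-TRAMP. Of 12 tested members of the list, 7 rose and none fell, with a median of 0.82, and 5 of the 17 listed were too low to test. The summed level of the list was 0.562% to 0.796% of reads in WT-TRAMP and 0.262% to 0.307% in WT, and none of its defining markers was at 0. In every library miR-146a-5p made up most of that sum, so the sum does not stand for the other members. miR-146a-5p, induced by NF-κB in immune cells, was the most abundant, at 3835, 5258 and 4725 RPM against 1874, 1506 and 1550.4 (log2 1.48 ± 0.17, limma adjusted p = 0.00156). miR-150-5p, of mature lymphocytes, stood at 146, 154 and 147 against 85.4, 103 and 67.5 (log2 0.81 ± 0.18, limma adjusted p = 0.0189), and miR-155-5p, of activated lymphocytes and macrophages, at 65.6, 77.9 and 70.2 against 30.9, 51.99 and 39.5 (log2 0.82 ± 0.22, limma adjusted p = 0.034). The groups did not overlap in either. miR-223-3p, of neutrophils and other myeloid cells, stood at 18.99, 22.7 and 20.03 against 14.96, 19.4 and 18.9 (log2 0.21 ± 0.18, limma adjusted p = 0.413), and its groups overlapped. The count of 7 dropped to 3 without library 12, 3 without library 21 and 4 without library 11. DESeq2 gave 3 rises without libraries 12 and 21. In the same contrast the list had 1 rise among 14 tested in KO (median 0.29) and 2 among 14 in A537T (median 0.28). At 10 weeks it had 4 rises among 12 (median 0.40), and no member fell in any of these. Over all tested miRNAs 6.8%, 10.5% and 13.8% rose there. miR-146a-5p differed by -0.04 in KO, 0.22 in A537T and 1.33 at 10 weeks (limma adjusted p = 0.943, 0.784 and 0.00932). miR-146b-5p, of the miR-146 family, stood at 659, 1265 and 980.4 against 753, 635 and 620.3 (log2 0.49 ± 0.25, limma adjusted p = 0.178). miR-342-3p stood at 199, 192 and 201 against 143, 202 and 166 (log2 0.22 ± 0.16, limma adjusted p = 0.313). Both overlapped between the groups. The other arm miR-342-5p rose by 0.89 (limma adjusted p = 0.0251), with the call lost without library 11, 12, 20 or 21 (adjusted p = 0.0653, 0.101, 0.0656 and 0.076). The part of leukocyte RNA in the changes of other miRNAs was not tested.

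The miR-34 family split. miR-34a-5p stood at 76.3, 63.1 and 66.7 RPM in WT-TRAMP and 229.9, 294 and 242 in WT, a fall of log2 -1.88 ± 0.15, limma adjusted p = 0.000514. miR-34c-5p, from the separate Mir34c/Mir34b locus on chromosome 9 (chr9:51103034-51103645, minus strand), stood at 308, 132 and 203 against 37.2, 80.1 and 61.96 (log2 1.81 ± 0.39, limma adjusted p = 0.0176). The library with the highest miR-34c-5p was library 10, and the call was lost without library 12 (adjusted p = 0.0728) or library 21 (adjusted p = 0.0649). Its other arm, miR-34c-3p, rose by 1.28 (limma adjusted p = 0.0104, and 0.0561 without library 12), and miR-34b-3p rose by 1.22 (adjusted p = 0.0329). miR-34b-5p, with a log2 fold change of 1.16, did not pass. miR-449a-5p, from a separate gene in an intron of Cdc20b and singled out after its values were seen, stood at 9.89, 5.67 and 7.20 against 0.573, 0.757 and 0.330 (log2 2.45 ± 0.25, limma adjusted p = 0.00116). In WT it was under 1 RPM in all libraries. Over the 13 tested miRNAs linked to p53, 4 rose (30.8%) and 2 fell (15.4%), beside 15.2% and 12.4% of all tested, with a median of 0.35. The 4 rises dropped to none by limma without library 12, to 1 without library 21 and to 2 without library 10 or 20. DESeq2 gave 1 rise and 1 fall without libraries 12 and 21. Of the abundant members of this list, miR-143-5p and miR-145a-3p differed by -0.25 and -0.37 (limma adjusted p = 0.557 and 0.129).

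The largest fall among the abundant miRNAs was in miR-365-3p, at 55.9, 42.8 and 52.4 RPM in WT-TRAMP and 326, 262 and 264 in WT (log2 -2.47 ± 0.17, limma adjusted p = 0.000461). miR-193b-3p, made from the same cluster (Mir193b/Mir365-1, chr16:13449523-13453926, plus strand), stood at 58.5, 40.5 and 43.00 against 169, 287 and 239 (log2 -2.25 ± 0.24, limma adjusted p = 0.00147). Each WT library held several times the level of any WT-TRAMP library in both. All 4 tested arms of this cluster fell, miR-193b-5p among them (log2 -1.45, limma adjusted p = 0.00442), with a median of -1.85. A second locus on chromosome 11 encodes the same miR-365-3p beside miR-193a, and miR-193a-3p, with the same seed as miR-193b-3p, stood at 1.52, 1.87 and 0.814 against 2.86, 2.79 and 4.22 (log2 -0.85 ± 0.25, limma adjusted p = 0.0495). All its values lay between 0.814 and 4.22 RPM.

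The epithelial miRNAs did not move as a block. Of 20 tested, 1 rose (5%) and 2 fell (10%), beside 15.2% and 12.4% of all tested miRNAs, with a median of -0.06. miR-205-5p, a miRNA of basal epithelial cells, stood at 1495, 825 and 1133 RPM in WT-TRAMP and 4886, 3092 and 3243 in WT (log2 -1.71 ± 0.28, limma adjusted p = 0.00598), and its other arm miR-205-3p was the second that fell (log2 -1.37, limma adjusted p = 0.00234). miR-203-3p, of differentiating epithelium, was the one that rose, from 524, 438 and 484 in WT to 875, 935 and 921 in WT-TRAMP (log2 0.92 ± 0.12, limma adjusted p = 0.00262). The groups did not overlap in either. The miR-200 family, which restrains the Zeb factors, did not pass and had fold changes of both signs. miR-200c-3p stood at 10679.8, 13979.8 and 12914 against 28908, 15884 and 18821 (log2 -0.72 ± 0.25, limma adjusted p = 0.0738). miR-200b-3p stood at 21826, 32113 and 27332 against 57898, 27649 and 31373 (log2 -0.46 ± 0.32, limma adjusted p = 0.298), and miR-200a-3p, from the same transcript as miR-200b, at 21279, 29476 and 25887 against 25188, 17234 and 17872 (log2 0.36 ± 0.22, limma adjusted p = 0.248). The other arms miR-200c-5p, miR-200b-5p and miR-200a-5p differed by -0.06, -0.88 and 0.42 (limma adjusted p = 0.879, 0.0721 and 0.354). Library 19 held the highest WT value of all 3 main arms. Without library 19 miR-200a-3p passed as higher (log2 fold change 0.53, adjusted p = 0.0392) and miR-200c-3p as lower (-0.48, adjusted p = 0.049). In that fit, where more miRNAs passed over all, 6 epithelial miRNAs rose and 3 fell. DESeq2 gave no rise and 1 fall in the list without libraries 12 and 21. miR-182-5p stood at 6736, 7409 and 7134 against 9577, 5871 and 6218 (log2 0.01 ± 0.21, limma adjusted p = 0.981), with overlap.

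The miR-29 family, known for repressing collagen and other matrix genes, fell in 5 of 7 tested arms, with a median of -0.88 and none rising. Its summed level was 0.884% to 1.02% of reads in WT-TRAMP and 1.69% to 2.21% in WT. miR-29a-3p carried most of this, at 8476, 9885 and 9251 RPM against 21495, 16319 and 17123 (log2 -0.98 ± 0.16, limma adjusted p = 0.00634). miR-29b-3p stood at 208, 218 and 208 against 392, 308 and 305 (log2 -0.65 ± 0.14, limma adjusted p = 0.0179), and miR-29c-3p at 89.1, 67.7 and 77.2 against 123, 172 and 139.7 (log2 -0.88 ± 0.18, limma adjusted p = 0.0156). All WT-TRAMP libraries were below all WT libraries in all 3. The locus on chromosome 1 (Mir29b-2/Mir29c, chr1:195037040-195037634, plus strand) fell in its 4 tested arms, among them miR-29c-5p, at 49.9, 48.3 and 50.8 against 83.3, 102 and 91.5 (log2 -0.88 ± 0.14, limma adjusted p = 0.00571). Without library 12, 3 arms of the family passed, and by DESeq2 without libraries 12 and 21 2 did. The calls of miR-29b-3p and miR-29c-3p were lost without library 12 (adjusted p = 0.0984 and 0.0832), that of miR-29b-3p also without library 10 (adjusted p = 0.0614) and that of miR-29c-3p also without library 21 (adjusted p = 0.0649).

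miR-221-3p and miR-222-3p, which share a seed and a locus on the X chromosome (chrX:19146294-19146971, minus strand) and repress the cell-cycle inhibitor p27, were lower in WT-TRAMP. miR-221-3p stood at 886, 786 and 832 RPM against 2013, 1355 and 1425 (log2 -0.91 ± 0.18, limma adjusted p = 0.0124), with the call lost without library 12 (adjusted p = 0.0671). miR-222-3p stood at 337, 321 and 332 against 820.5, 473 and 531 (log2 -0.84 ± 0.22, limma adjusted p = 0.0329). The WT value of library 19 was the highest in both. Of the list of cancer-linked miRNAs as a whole, 3 of 33 tested rose (9.09%) and 8 fell (24.2%), with a median of -0.09. Of all tested miRNAs 15.2% rose and 12.4% fell. Without library 12 there were 3 falls, and without library 21 there were 5. Without library 19, when more miRNAs passed over all, there were 7 rises. DESeq2 gave 2 rises and 2 falls without libraries 12 and 21. miR-21a-5p, one of the most widely raised miRNAs in tumours, stood at 91478, 153181 and 122345 against 116243, 76673 and 77189 (log2 0.44 ± 0.28, limma adjusted p = 0.264), and its groups overlapped. Its less abundant other arm, miR-21a-3p, passed as higher, at 12.6, 22.2 and 16.8 against 9.02, 6.35 and 6.20 (log2 1.14 ± 0.27, limma adjusted p = 0.0228), and lost the call without library 11, 12, 20 or 21 (adjusted p = 0.0541, 0.0982, 0.0601 and 0.0959). It also passed as higher in A537T (log2 1.32, limma adjusted p = 0.0257) and at 10 weeks (log2 1.52, limma adjusted p = 0.00527), and in KO it stood at log2 0.90 (limma adjusted p = 0.157).

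Other falls among the 12 largest were in miRNAs from single loci. miR-574-3p stood at 77.2, 109 and 91.6 RPM against 211, 193 and 184 (log2 -1.09 ± 0.16, limma adjusted p = 0.00467), miR-328-3p at 336, 407 and 379 against 1021, 659.8 and 734 (log2 -1.08 ± 0.19, limma adjusted p = 0.00884), and miR-22-3p at 1359, 2192 and 1775 against 3771, 3282 and 3612 (log2 -1.03 ± 0.20, limma adjusted p = 0.0115). The call of miR-22-3p was lost without library 12 (adjusted p = 0.0616). miR-152-5p stood at 118, 151 and 137 against 406, 229 and 279 (log2 -1.13 ± 0.23, limma adjusted p = 0.0151), and its call was lost without library 10 or library 12 (adjusted p = 0.0512 and 0.0678). The groups of all 4 stood apart. The rest of the miR-148 and miR-152 family did not pass, 1 of its 6 tested members having fallen and none risen (none by DESeq2 without libraries 12 and 21). miR-152-3p, miR-148b-3p and miR-148a-5p differed by -0.46, 0.44 and -0.41 (limma adjusted p = 0.102, 0.209 and 0.225), and miR-148b-3p passed as higher without library 19 (adjusted p = 0.00586). The family member miR-148a-3p, the most abundant miRNA of all, stood at 230262, 268359 and 254242 against 272353, 117923 and 150468 (log2 0.57 ± 0.33, limma adjusted p = 0.232), with library 19 above the others and a call when it was left out (log2 fold change 0.91, adjusted p = 0.00586).

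Stromal and muscle miRNAs showed a mixed picture. Of 23 tested miRNAs of smooth muscle and fibroblasts, 1 fell (4.35%, beside 12.4% of all tested) and none rose, with a median of -0.12. The one that fell was miR-145a-5p, a smooth muscle miRNA, at 5529, 2312 and 3635 RPM against 6809, 10184 and 8415 (log2 -1.22 ± 0.33, limma adjusted p = 0.0383). It lost the call without library 11, 12, 20 or 21 (adjusted p = 0.0614, 0.126, 0.115 and 0.123). Its cluster partner miR-143-3p stood at 187912, 92948 and 131474 against 150506, 189050.0 and 172080.0 (log2 -0.36 ± 0.29, limma adjusted p = 0.374). The other abundant members, miR-99a-5p and miR-27b-3p, differed by 0.07 and 0.06 (limma adjusted p = 0.817 and 0.833). DESeq2 gave no fall in the stromal list without libraries 12 and 21 and 3 in the skeletal muscle list. Among 6 tested miRNAs of skeletal muscle 3 fell and none rose: miR-133a-3p stood at 351, 212 and 255 against 829.8, 815 and 770.1 (log2 -1.59 ± 0.20, limma adjusted p = 0.00225), and both miR-133b-3p and miR-133a-5p passed with it, the latter not without library 11, 12 or 21 (adjusted p = 0.0507, 0.0988 and 0.075). miR-1a-3p, made from the same transcripts as miR-133a, stood at 3916, 2248 and 2919 against 3656, 2906 and 2942 (log2 -0.09 ± 0.23, limma adjusted p = 0.785), and its groups overlapped. miR-206-3p, found in skeletal muscle, stood at 3.71, 8.97 and 7.89 against 188, 4.31 and 49.96 (log2 -2.31 ± 1.22, limma adjusted p = 0.192), with library 19 far above the others. The summed level of the skeletal muscle list was 0.249% to 0.431% of reads in WT-TRAMP and 0.380% to 0.474% in WT. The miR-378 family, abundant in muscle and other oxidative tissue, fell in 4 of 5 tested members (80%, beside 12.4% of all tested), with a median of -0.72. Of these members 1 fell without library 12, 2 without library 21 and none by DESeq2 without both. miR-378d stood at 96.7, 98.3 and 103 against 181, 151 and 162 (log2 -0.72 ± 0.13, limma adjusted p = 0.0093) and lost the call without library 12 (adjusted p = 0.0609).

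**Figure D4:**
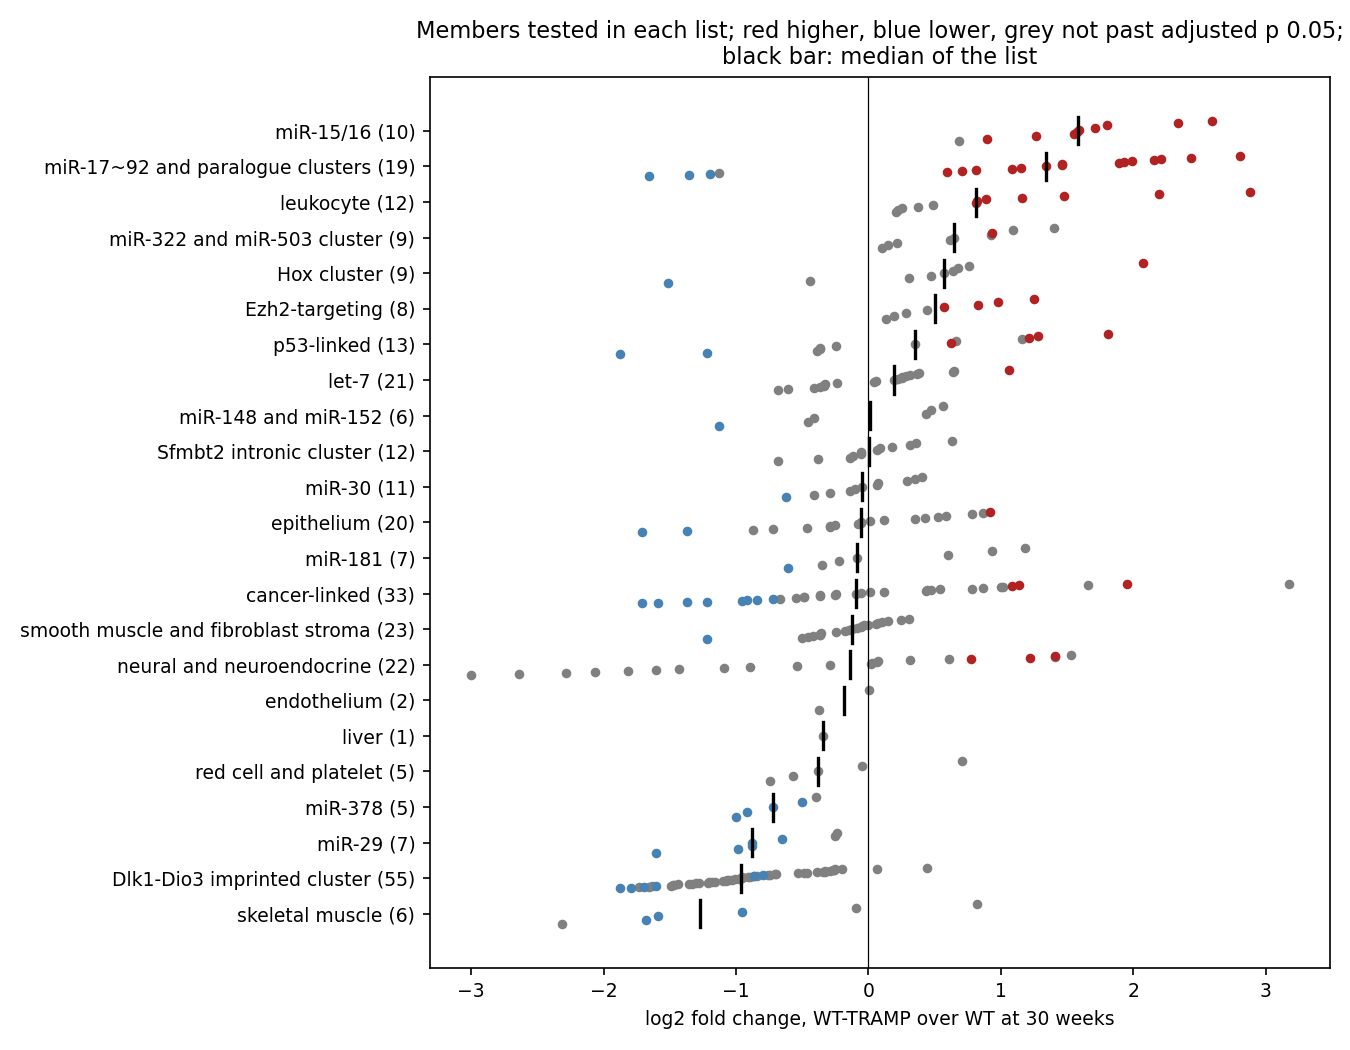
Log2 fold change (WT-TRAMP over WT at 30 weeks) of each tested miRNA in the 23 lists, with the number tested in brackets, lists ordered by their median (black line), red points past an adjusted p of 0.05 in limma and higher, blue points lower. The miR-15/16 (median 1.59) and miR-17/92 (median 1.34) lists lie farthest to the right, and skeletal muscle (median -1.27) and Dlk1-Dio3 (median -0.96) farthest to the left.

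The imprinted Dlk1-Dio3 cluster on chromosome 12, whose many miRNAs are made from the maternal allele, varied with 1 control library. Of 55 tested members 6 fell (10.9%, beside 12.4% of all tested miRNAs) and none rose, with a median of -0.96. The summed level was 1026, 1352 and 1182 RPM in libraries 10, 11 and 12 and 1171, 3274 and 2808 in libraries 19, 20 and 21. Library 19 thus lay with the WT-TRAMP libraries. Without it, when more miRNAs passed over all, 49 members fell by limma. Without library 11 1 did, and without library 10, 12, 20 or 21 none did. With all libraries edgeR called 12 falls in the cluster. DESeq2, which called more miRNAs over all, called 33, and 1 without libraries 12 and 21. miR-127-3p, its most abundant member, stood at 343, 462 and 397 against 493, 1351 and 1181 (log2 -1.21 ± 0.39, limma adjusted p = 0.0589). The abundant members miR-379-5p, miR-434-5p and miR-541-5p differed by 0.07, -0.49 and -0.74 (limma adjusted p = 0.893, 0.378 and 0.183), and the last 2 passed as lower without library 19 (adjusted p = 0.0409 and 0.00459). In KO 6 of 48 tested members rose and none fell (median 0.53), where 6.8% of all tested miRNAs rose and 5.83% fell. Among the 6 was miR-434-5p (log2 1.02, limma adjusted p = 0.0287). Its effect did not differ between WT and KO by the interaction contrast (log2 -1.52, limma adjusted p = 0.129). In A537T none of 53 passed (median -0.20), and at 10 weeks 3 of 60 fell and none rose (median -0.42). Of all tested miRNAs 14.1% passed in A537T, and at 10 weeks 10.1% fell and 13.8% rose.

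The neural and neuroendocrine list also varied within the groups, with 3 of 22 tested higher, none lower and a median of -0.14. Its 13.6% higher lay near the 15.2% of all tested miRNAs. Without library 19, when more miRNAs passed over all, 4 were higher and 7 lower. DESeq2 without libraries 12 and 21 gave 1 higher and 2 lower. miR-375-3p, of neuroendocrine and secretory cells, stood at 3081, 702 and 1826 RPM against 3087, 1378 and 1706 (log2 -0.29 ± 0.57, limma adjusted p = 0.723), with library 11 lowest. miR-9-5p, of neural progenitors, stood at 925, 92.3 and 480.1 against 171, 964 and 774 (log2 -0.54 ± 1.00, limma adjusted p = 0.706), and miR-218-5p, of motor neurons, at 561, 612 and 582 against 164, 1198 and 876 (log2 0.07 ± 0.71, limma adjusted p = 0.947). Library 11 was also the lowest for miR-9-5p, and library 19 was the lowest for miR-218-5p. A pair of miRNAs singled out after their values were seen differed widely within a group: miR-135a-5p stood at 214, 10.8 and 102 against 5.66, 7.34 and 5.34 (log2 3.18 ± 1.00, limma adjusted p = 0.0588), and miR-138-5p at 8.93, 3.44 and 6.57 against 5.30, 211 and 128 (log2 -3.00 ± 1.28, limma adjusted p = 0.121). Neither passed. In miR-135a-5p the rise was absent from library 11, and in miR-138-5p the high WT level was absent from library 19. Among the other cell types that lobes can hold, red cell and platelet miRNAs (5 tested), endothelial (2 tested) and liver (1 tested) had no member that passed, with medians of -0.38, -0.18 and -0.34. miR-451a, of red cells, stood at 101, 119 and 104 against 129, 243 and 191 (log2 -0.75 ± 0.24, limma adjusted p = 0.0636), and passed as lower without library 19 (adjusted p = 0.00492). The summed miR-486a/b-5p and miR-144-5p differed by -0.38 and -0.05 (limma adjusted p = 0.557 and 0.883). Endothelial miR-126a-5p differed by -0.37 (limma adjusted p = 0.346) and liver miR-122-5p by -0.34 (limma adjusted p = 0.71).

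miRNAs that target Ezh2, the histone methyltransferase raised in advanced prostate cancer, were higher in 4 of 8 tested (50%, beside 15.2% of all tested) and lower in none. Their median was 0.50, and 2 passed without library 12 or without library 21 and 1 by DESeq2 without both. miR-101a-3p, the best known of them, stood at 2135, 1818 and 1915 RPM against 719, 886 and 865 (log2 1.25 ± 0.14, limma adjusted p = 0.0015). Its relative miR-101b-3p stood at 891, 849.7 and 865 against 470.0, 502 and 492 (log2 0.83 ± 0.11, limma adjusted p = 0.00234). miR-26a-5p, among the 5 most abundant miRNAs of all, stood at 41998, 50609 and 45160.4 against 53353, 32294 and 37018 (log2 0.20 ± 0.23, limma adjusted p = 0.54), with overlap. miR-26b-5p stood at 7255, 8955 and 7835 against 6125, 5172 and 4930.3 (log2 0.57 ± 0.15, limma adjusted p = 0.0358), and the call was lost without library 11, 12, 20 or 21 (adjusted p = 0.0872, 0.129, 0.077 and 0.153). miR-132-3p, from the Mir212/Mir132 locus of which 3 of 4 tested arms rose, stood at 82.1, 71.8 and 76.3 against 29.5, 28.5 and 26.5 (log2 1.41 ± 0.14, limma adjusted p = 0.00116). Its groups stood far apart.

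The remaining lists had few calls. Of 21 tested let-7 miRNAs, the tumour-suppressor family that represses Lin28, Ras and Hmga2, 1 rose and none fell, with a median of 0.19. let-7f-5p, among the 5 most abundant miRNAs of all, stood at 31246, 39112 and 35792 against 60250.5, 36826 and 41837 (log2 -0.36 ± 0.23, limma adjusted p = 0.264). let-7c-5p, let-7g-5p and let-7i-5p differed by -0.24, 0.22 and 0.28 (limma adjusted p = 0.522, 0.352 and 0.164), and let-7g-5p passed as higher without library 19 (adjusted p = 0.0282). miR-30 had 1 fall among 11 tested and a median of -0.05. The fall was that of miR-30b-5p, at 1723, 1701 and 1646 against 2231, 3001 and 2618 (log2 -0.62 ± 0.14, limma adjusted p = 0.0228), and the call was lost without any 1 of libraries 10, 11, 12, 20 and 21 (adjusted p = 0.0726, 0.0614, 0.122, 0.0588 and 0.0916). The more abundant miR-30d-5p, miR-30a-5p and miR-30c-5p differed by -0.29, 0.40 and -0.14 (limma adjusted p = 0.487, 0.0737 and 0.636).

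miR-181 had 1 fall among 7 tested and a median of -0.09. It was miR-181b-5p, at 305, 236 and 254 against 458, 379 and 377 (log2 -0.61 ± 0.15, limma adjusted p = 0.0303), with the call lost without library 11, 12, 20 or 21 (adjusted p = 0.0796, 0.135, 0.0586 and 0.0791). miR-181d-5p stood at 381, 73.3 and 217 against 71.5, 84.1 and 84.2 (log2 1.19 ± 0.56, limma adjusted p = 0.153), with library 10 highest and library 11 within the range of WT. miR-181a-5p and miR-181a-1-3p differed by -0.09 and -0.22 (limma adjusted p = 0.805 and 0.377). The cluster of miR-322 and miR-503 had 1 rise among 9 and a median of 0.65, and 5 rises when library 11 was left out. Its more abundant members miR-322-3p, miR-351-5p and miR-450a-5p differed by 0.22, 0.15 and 0.62 (limma adjusted p = 0.499, 0.698 and 0.0996). The miRNAs of the Hox clusters had 1 rise and 1 fall among 9, and the Sfmbt2 intronic cluster none among 12, with medians of 0.57 and 0.00. The single calls of these lists, named after their values were seen, were the merged 3p entry of let-7a and let-7c (log2 1.06), miR-450b-5p (0.93) and, in the Hox clusters, miR-196a-1-3p (2.07) and miR-615-3p (-1.52), with limma adjusted p of 0.0228, 0.0385, 0.00116 and 0.0179. The abundant Hox cluster members did not pass. miR-10b-5p stood at 13300.1, 1883 and 7083 against 2876, 4627 and 4052 (log2 0.57 ± 0.68, limma adjusted p = 0.549), with both the highest and the lowest value in WT-TRAMP. miR-10a-5p, miR-196b-5p and miR-196a-5p differed by 0.47, 0.31 and 0.68 (limma adjusted p = 0.234, 0.104 and 0.18). Of the Sfmbt2 cluster, miR-669c-5p, miR-467a-5p and the merged entries miR-669pa-5p and miR-669ao-3p differed by -0.06, 0.31, 0.18 and -0.06 (limma adjusted p between 0.367 and 0.931). Without library 12 the Hox list had 1 rise and the let-7, miR-30, miR-181, miR-322 and miR-503, and Sfmbt2 lists no call, and without libraries 12 and 21 DESeq2 gave the same counts for these lists. The other arms of the miRNAs named by the rule numbered 37, of which 7 passed as higher and 3 as lower, and the 27 that did not pass lay between -1.10 and 0.87 on the log2 scale. A share of 15.2% higher and 12.4% lower over all tested miRNAs is the background of these counts.

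The same contrast in other libraries of the study showed largely the same direction. These libraries share none with the WT comparison at 30 weeks. In KO prostates 65 of 515 miRNAs (12.6%) passed, 35 higher (6.8%) and 30 lower (5.83%). In A537T prostates 70 of 496 (14.1%) passed, 52 higher (10.5%) and 18 lower (3.63%), and in WT prostates at 10 weeks 121 of 506 (23.9%), 70 higher (13.8%) and 51 lower (10.1%). Of the 77 rises in WT, 66 of 74 tested had a positive fold change in KO, 72 of 73 in A537T and 67 of 75 at 10 weeks, where 258 of 515, 231 of 496 and 243 of 506 of all tested miRNAs were positive. Of the 63 falls, 55 of 62, 60 of 62 and 48 of 63 were negative. Both comparisons called 24 rises with KO (31.2% of those in WT, 68.6% of those in KO), 43 with A537T (55.8% and 82.7%) and 46 with 10 weeks (59.7% and 65.7%). The shared falls numbered 21 with KO (33.3% and 70.0%), 14 with A537T (22.2% and 77.8%) and 15 with 10 weeks (23.8% and 29.4%). No miRNA that passed in WT at 30 weeks passed in the opposite direction in another comparison. The KO count fell to 0 without library 18, 22 or 24 and rose to 199 without library 16, so the number shared with KO rests on those libraries. Libraries 18 and 24 are those given above as closest to a blend of the others of their group.

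**Figure D5:**
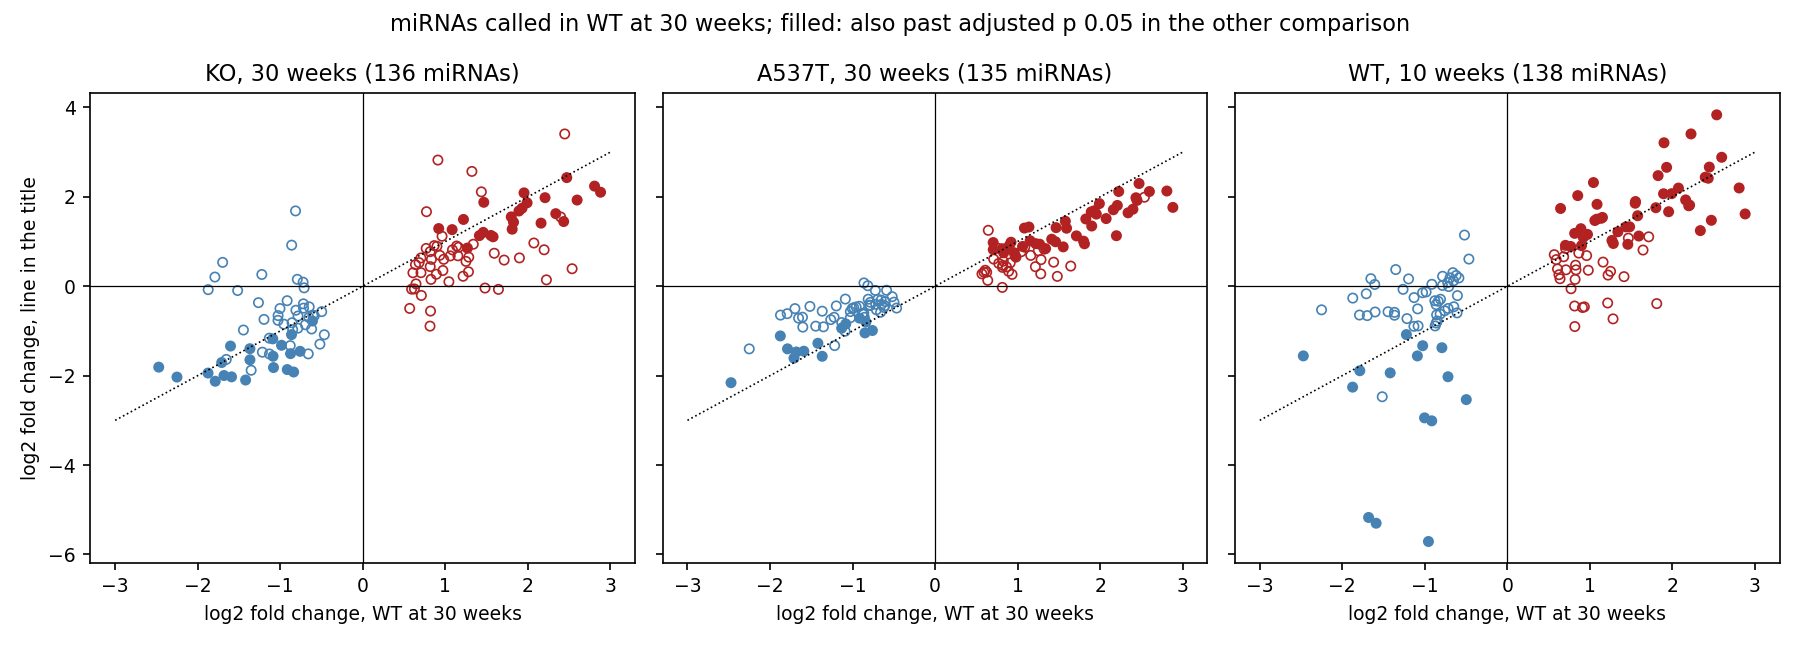
Log2 fold changes (TRAMP over no TRAMP) in KO at 30 weeks, A537T at 30 weeks and WT at 10 weeks against those in WT at 30 weeks, for the miRNAs that passed in WT at 30 weeks and were tested in the other comparison (red, rises; blue, falls; filled, past an adjusted p of 0.05 in both; dotted line, equal change). Most points lie at the lower left and upper right, and 3 falls at 10 weeks lie below -5 on the vertical axis.

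At 30 weeks 36 miRNAs passed in all 3 lines, 24 higher and 12 lower. The rises included all of miR-25-3p, miR-93-5p, miR-106b-5p, miR-15b-5p, miR-16-5p, miR-19a-3p, miR-19b-3p, miR-142a-3p, miR-203-3p and miR-34c-5p, and the falls miR-34a-5p, miR-205-5p, miR-221-3p, miR-222-3p, miR-328-3p, miR-133a-3p and miR-365-3p. miR-205-5p stood at 848, 1707 and 1332 RPM in KO-TRAMP and 4046, 4253 and 3903 in KO, and at 2018, 950.4 and 1198 in A537T-TRAMP and 3983, 4284 and 3830.2 in A537T. The gap was of much the same size in all 3 lines, with log2 fold changes of -1.71, -1.71 and -1.61. The Mir15b/Mir16-2 cluster had 4 of 4 arms higher in each line and at 10 weeks, and Mir25/Mir93/Mir106b had 6 of 6 in WT and A537T, 5 of 6 in KO and 6 of 6 at 10 weeks. Mir17hg had 9 of 9 arms higher in WT at 30 weeks, 4 of 9 in KO, 7 of 9 in A537T and 6 of 9 at 10 weeks. The Mir29b-2/Mir29c locus had 4 of 4 lower in WT, 2 of 4 in KO and none in A537T or at 10 weeks, and Mir193b/Mir365-1 had 4 of 4, 2 of 4, 1 of 4 and 1 of 4. Tested as a difference between lines, the TRAMP effect in WT differed from that in KO for 0 of 519 miRNAs by limma (112 at an unadjusted p under 0.05; 0 by edgeR and 62 by DESeq2), and from that in A537T for 1 of 511 (0.196%), miR-142a-3p. For miR-205-5p the difference between WT and KO was -0.02 on the log2 scale, with a 95% interval of -0.92 to 0.88. For miR-29a-3p the difference between WT and A537T was -0.47, with an interval of -1.06 to 0.13, so a difference between the lines was not detectable with these libraries.

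Between the ages the TRAMP effect in WT differed for 54 of 512 miRNAs (10.5%) by limma, 38 (7.42%) with a more positive effect at 30 weeks and 16 (3.12%) with a more negative one. miR-205-5p, lower at 30 weeks, stood at 10 weeks at 3009.8, 2111 and 1384 RPM in WT-TRAMP and 2491, 2378 and 2108 in WT, and its effect differed between the ages by log2 -1.54 ± 0.43, limma adjusted p = 0.043. miR-34c-5p stood at 10 weeks at 42.3, 33.1 and 46.5 against 85.9, 53.5 and 32.3, with overlapping groups, and the difference between the ages was log2 2.20 ± 0.57, limma adjusted p = 0.0352. miR-20b-5p stood at 10 weeks at 26.6, 28.5 and 18.5 against 13.4, 27.2 and 26.6, with a difference between the ages of log2 -1.82 ± 0.42, limma adjusted p = 0.0222. These changes at 30 weeks did not pass in the younger prostates. In contrast miR-15b-5p stood at 10 weeks at 270.1, 271 and 258 against 34.8, 30.5 and 41.1, and the difference between the ages was -0.29 with a 95% interval of -0.94 to 0.37. For miR-25-3p the difference was 0.02, with an interval of -0.90 to 0.95. miR-34a-5p stood at 10 weeks at 47.5, 45.7 and 23.9 against 223, 252 and 108, and its difference was 0.39, with an interval of -0.61 to 1.38. Several of the larger differences between the ages were in muscle miRNAs, for which the 10-week WT libraries held far more than any other: miR-1a-3p stood there at 56719, 162027 and 345337, against 2262, 5607 and 4036 in WT-TRAMP of that age. The part of muscle RNA in the other differences between the ages was not tested. Without libraries 12 and 21 limma called 9 differences between the ages.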

How the data were processed

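Small RNA libraries (TruSeq small RNA kit, NovaSeq) of mouse ventral and lateral prostate lobes were processed by the authors with BBMerge and mirDeep2 against GRCm38 and miRBase, with identical miRNAs summed. The deposited values are normalised counts, a signal that is each count divided by a DESeq2 size factor, in tables normalised separately. Here 100% of values came out as whole reads (tolerance 0.01 read), and these were recovered as counts. Columns were tied to groups by table names, a column in both tables of an age being a shared control, so a library's replicate number in the labels is not known. Of 1963 listed miRNAs 421 had no read in the 24 libraries used.

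Because both groups lay in separate tables, each column was divided by its sum, multiplied by 1000000 (RPM) and rescaled by its median ratio over shared miRNAs. miRNAs with a mean of at least 1 RPM were tested with limma 3.58.1 (R 4.3.3, variance trend, two-sided) on log2(value + 1), which understates changes of low miRNAs. ± values are SE, and p-values were Benjamini-Hochberg adjusted over all tested miRNAs (threshold 0.05). Differences between ages and lines were interaction contrasts over 12 libraries. edgeR 4.0.16 and DESeq2 1.42.0 on recovered reads, other scalings, filters and pseudocounts, and leaving out libraries were alternatives. The code was tested on simulated data.

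The text names the 12 largest rises and 12 largest falls with a mean of at least 100 RPM and no overlap between groups, the 4 most abundant members of each list (epithelium, stroma, skeletal muscle, leukocyte, red cell and platelet, endothelium, liver, neural, miR-17/92, miR-15/16, p53-linked, let-7, miR-29, miR-30, Ezh2-targeting, cancer-linked, miR-322 and miR-503, Dlk1-Dio3, Sfmbt2, Hox, miR-181, miR-148 and miR-152, miR-378), the 5 most abundant miRNAs, their other arms (those that did not pass mostly by count and range) and, in the interactions, up to 3 more. Other members of a cluster or family described, and those said to be singled out, were chosen after their values were seen. The comparison, the members and the lists were chosen with earlier results of these data known. Clusters are precursors on the same strand within 10000 bases by RefSeq positions (GRCm38.p6), and host genes are from the GENCODE annotation of GRCm38. A tested miRNA without a RefSeq sequence is in no cluster or seed count. RefSeq held a sequence for 417 of the 508 tested miRNAs. Depth was 13647537 to 17867885 reads per library, so a miRNA at 1 RPM rests on 13 to 18 reads.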

Additional observations from a re-analysis of the deposited data

Results flagged for a closer look

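For 24 of the miRNAs named by the rule, the TRAMP effect in WT differed between 30 and 10 weeks by limma's interaction contrast (adjusted p between 0.00143 and 0.0491). Values are the effect at 30 weeks minus that at 10 weeks on the log2 scale. The group with the largest differences was muscle miRNAs: miR-1a-3p differed by 5.21, miR-133a-5p by 4.76, miR-133a-3p by 3.71 and miR-133b-3p by 3.50. At 10 weeks miR-133a-3p stood at 571, 802 and 601 RPM in WT-TRAMP and 14249, 35008 and 33976 in WT, while at 30 weeks no library of either group exceeded 829.8. All 8 tested skeletal muscle miRNAs were lower in WT-TRAMP at 10 weeks, and the 10-week WT libraries were the ones that stood apart. miR-378a-3p, miR-378a-5p and miR-378c, abundant in muscle, differed by 2.04, 1.95 and 2.58. miR-486a-3p and the summed miR-486a/b-5p, of red cells and muscle, differed by 3.64 and 2.97, and endothelial miR-126a-3p by 1.53. miR-30a-5p and miR-30a-3p differed by 0.97 and 1.25. The part of muscle RNA in the 10-week WT lobes in these values was not tested.

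A second group came from the X-chromosomal Mir322/Mir503 region: miR-322-3p differed by 1.82, miR-322-5p by 1.73, miR-351-5p by 1.64 and miR-450a-5p by 1.26. miR-322-5p stood at 29.2, 12.3 and 20.5 RPM in WT-TRAMP and 5.80, 11.99 and 9.03 in WT at 30 weeks, and at 13.5, 11.8 and 10.3 and 22.8, 19.5 and 15.1 at 10 weeks. miR-34c-5p and miR-34c-3p differed by 2.20 and 2.01, and miR-467a-5p by 1.35.

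The effect was more negative at 30 weeks for miR-205-5p (-1.54), let-7c-5p (-1.30), miR-221-3p (-0.96), miR-7a-5p (-0.91) and miR-29a-3p (-0.85). let-7c-5p stood at 10 weeks at 50213, 52938 and 36349 against 16956, 23891 and 25934 RPM, without overlap, and at 30 weeks at 26925, 33625 and 29631 against 51195, 26922 and 32016, with overlap. miR-221-3p and miR-29a-3p overlapped between the groups at 10 weeks.

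Between the lines, the effect on miR-142a-3p was larger in WT than in A537T by 1.16 on the log2 scale (limma adjusted p = 0.0273). The A537T-TRAMP libraries held 247, 251 and 239 RPM, much as WT-TRAMP did, and the A537T controls 71.8, 68.5 and 74.8 against 30.8, 37.1 and 32.4 in WT. The TRAMP groups overlapped and the control groups did not. No group had more than 3 libraries, so no test for an outlying library applied.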

How the results depend on the processing

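For the TRAMP effect in WT at 30 weeks, 140 calls became 92 with a mean of at least 10 RPM and 55 with at least 100, where fewer miRNAs were tested. Leaving out 1 library gave 61 to 241 calls, 61 without library 12, 74 without library 21 and 241 without library 19. Without libraries 12 and 21 together, chosen after seeing the data, limma and edgeR gave 0 (83 and 102 at an unadjusted p under 0.05) and DESeq2 gave 50. The split of 77 higher and 63 lower became 97 and 113 of 210 with DESeq2, 82 and 86 with all 24 libraries, and 61 and 38 with no filter. Of the 48 named calls in the comparison, edgeR kept 47, DESeq2 48, scaling to totals 45, no filter 40 and DESeq2 without libraries 12 and 21 26. Scaling to totals moved the median log2 fold change to -0.11 and TMM to -0.09. The 132 named miRNAs gave 2319 values that kept their side of the threshold, 183 that lost a call and 62 that gained one. Among the 2319, 67 values of 26 miRNAs had the other sign with no call in either fit. The sign changed once with a call in 1 of the fits: miR-218-5p, 0.07 in the comparison, was -0.81 without library 19 and 0.63 without library 20.

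The TRAMP effect in WT at 10 weeks had 121 calls: a mean of at least 100 RPM gave 52, a fit to all 24 libraries 185, and leaving out 1 library 84 to 181. For the TRAMP effect in KO at 30 weeks (65), no filter gave 33, a mean of at least 100 gave 39, DESeq2 152, all 24 libraries 196, and leaving out 1 library 0 to 199: 0 by limma without library 18, 22 or 24 (99, 126 and 109 at an unadjusted p under 0.05), 22 without 17 and 199 without 16. The TRAMP effect in A537T at 30 weeks had 70: a mean of at least 100 gave 29 and leaving out 1 library 30 to 131 (37 without 15, 30 without 25, 131 without 26).

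The TRAMP effect in WT, 30 against 10 weeks, differed in 54: a mean of at least 100 RPM gave 23, leaving out libraries 12 and 21 gave 9, and leaving out 1 library 18 to 55 (18 without 10 or 12, 23 without 1 or 21, 28 without 2). For the TRAMP effect at 30 weeks, WT against KO (0 by limma, 112 at an unadjusted p under 0.05, 0 by edgeR), a pseudocount of 10, a mean of at least 100, scaling to totals and limma without a variance trend each gave 1, TMM 2, DESeq2 62, all 24 libraries 25, and leaving out 1 library 0 to 90 (90 without 16, 71 without 19, 22 without 23). For the TRAMP effect at 30 weeks, WT against A537T (1), the count was 0 with no filter, scaling to totals, no variance trend, edgeR, all 24 libraries or without libraries 12 and 21 (13 to 78 at an unadjusted p under 0.05), 3 with DESeq2, and 0 to 13 leaving out 1 library (13 without 19, 8 without 11, 3 without 26, and 0 without 12, 13, 14, 15, 21, 25 or 27). The cause of these shifts was not tested.

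No paired analysis was possible because the columns carry no replicate numbers of the labels. With 3 libraries a group, a missed threshold does not show that levels were equal, and 51 of the 140 calls rest on miRNAs with a mean under 10 RPM.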

Other observations

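Of the 140 miRNAs that passed, 59 were in none of the lists, and the ones named here were chosen after their values were seen. Among them miR-872-5p stood at 540.1, 554 and 534 RPM in libraries 10, 11 and 12 and 219.6, 214 and 234 in libraries 19, 20 and 21 (log2 1.28 ± 0.11, limma adjusted p = 0.000514). miR-374b-5p stood at 399, 349 and 365 against 202, 179 and 186 (log2 0.97 ± 0.12, limma adjusted p = 0.00229). Both had little spread within the groups. miR-147-3p, induced in macrophages by Toll-like receptor ligands, was low but higher in WT-TRAMP, at 8.26, 22.03 and 13.6 against 2.08, 2.10 and 0.923 (log2 2.47 ± 0.39, limma adjusted p = 0.00549). It was also higher in KO and A537T at 30 weeks. On the other side, miR-664-3p stood at 13.1, 15.6 and 16.7 against 66.9, 49.7 and 48.6 (log2 -1.79 ± 0.20, limma adjusted p = 0.00147). miR-320-3p, a miRNA made without Drosha, stood at 202, 242 and 223 against 518, 349 and 364 (log2 -0.86 ± 0.19, limma adjusted p = 0.0176). Several of the rises in this group, such as miR-3473b and miR-3473e (18.5, 29.6 and 22.4 against 3.72, 3.67 and 5.21, and 12.9, 17.3 and 13.8 against 1.36, 1.80 and 1.91), are miRBase entries of low level for which no role is given here.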
